A study of Drosophila melanogaster with 288 samples.

Results

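Single Drosophila melanogaster embryos of the W1118 strain were collected at 8 ages between 2-3h and 23-24h after egg laying. Of these, 97 samples fell in a small cluster beside the developmental trajectory. At 2-3h, 11 of its 25 members carried early zygotic transcripts. The cluster holds 97 of 250 samples with at least 300000 counts and at least 4500 genes detected, out of 288 samples in all. The members were chosen by multidimensional scaling of the whole transcriptomes: the first dimension rises with age along the trajectory, and the cluster holds the samples with a second dimension above 0 and a first dimension below -0.0554. The highest member on the first dimension stood at -0.0698, and the nearest sample outside among those with a second dimension above 0 stood at 0.0629. On the second dimension the lowest member stood at 0.00237, and the nearest sample outside among those below the limit on the first stood at -0.00982. Because these values chose the members, the separation of the cluster from the other samples is a description and was not tested.

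Each sample is the poly(A) RNA of 1 whole egg or embryo, reared at room temperature without treatment, and counted at the 3′ ends of transcripts by BRB-seq, which barcodes every sample during oligo-dT primed reverse transcription. The cluster held 25 samples of 2-3h, 10 of 5-6h, 9 of 8-9h, 12 of 11-12h, 5 of 14-15h, 4 of 17-18h, 9 of 20-21h and 23 of 23-24h. The comparison made here sets the 32 members aged 20-21h or 23-24h (called 20-24h) against the 31 members aged 5-6h, 8-9h or 11-12h (called 5-12h). These came from 4 sequencing libraries, with 9 samples of 5-12h and 1 of 20-24h in library E1_1, 4 and 5 in E1_2, 13 and 16 in E2, and 5 and 10 in E3. RNA samples had been grouped into plates by concentration and each plate diluted to its lowest sample, so that library and RNA amount may be linked. Nothing in the labels ties samples to mothers or to separate egg collections, and p-values therefore measure only the spread between these eggs.

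A Drosophila egg is laid with a full store of maternal mRNA, made by the nurse cells of the ovary, because transcription from its own genome starts only after a series of rapid nuclear divisions. Egg activation completes meiosis and starts the translation and the decay of part of this store, and it does so in unfertilised eggs as well. An egg that does not develop thus keeps an RNA pool that is not refilled from a zygotic genome, and its composition can be followed with time. The values are relative levels. A transcript whose share rises may be more abundant or may only have been lost more slowly than the rest, and these cannot be told apart. Nor can fewer cells and less RNA per cell. Only poly(A) RNA primed by oligo-dT was counted, and poly(A) tail length was not measured. Tail length and amount therefore cannot be told apart either.

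The label of an undeveloped egg was checked against the genes that a developing embryo switches on. In the 72 members aged 5h or more, the summed level of 30 early zygotic genes, among them gap and pair-rule genes, was at most 342 cpm (counts scaled to the library total). No sum outside the cluster at the same ages is set beside it. This value alone therefore does not separate older members from developing embryos. The summed level of 70 genes of the cuticle, muscle, nervous system and gut ran from 826 to 8483 cpm with a median of 1529 cpm in 5-12h members. It ran from 774 to 7639 cpm with a median of 1967 cpm in 20-24h members, against a median of 51478 cpm in samples of the same ages outside the cluster. Of these 70 genes, 13 of 24 cuticle, 7 of 15 neuronal, 3 of 15 gut and 0 of 16 muscle genes had a median under 1 cpm in 20-24h members. roX1 and roX2, RNAs of the male dosage compensation complex, summed to a median of 18.4 cpm at 5-12h and 13.4 cpm at 20-24h, against 285 cpm outside the cluster at 20-24h. They exceeded 50 cpm in 5 of the 32 older members and in none of the 31 younger ones. The highest of the 5, a 20-21h member of library E1_2, had 283 cpm. Of 24 follicle cell genes, a somatic cell layer that surrounds the egg in the ovary, 23 had a median under 1 cpm in both sets. Counts of calls without the 5 samples are given with the comparison. Members are called eggs below for short, and whether each was an undeveloped egg was not tested.

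At 2-3h the cluster was mixed. The early zygotic sum was between 1198 and 8589 cpm in 11 of its 25 members and between 11.9 and 227 cpm in the other 14. The ages 2-3h, 14-15h and 17-18h were kept out of the main comparison and serve below as a separate set.

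The older members carried shallower libraries with fewer transcripts. Total counts ran from 669098 to 19567292 with a median of 5136377 at 5-12h, and from 386028 to 8047054 with a median of 1553942.5 at 20-24h. After every sample was thinned to 300000 counts, the number of genes detected had a median of 5995 (4027 to 6870) at 5-12h and 5243 (3964 to 6679) at 20-24h. The within-library difference was -578 genes, with p = 2e-05 in a permutation test over samples within libraries and an adjusted p of 6.7e-05 over 5 such values. The 100 most abundant genes took 49.6% of counts (39.5% to 61.8%) at 5-12h and 55.3% (47.1% to 68.9%) at 20-24h, with a permutation p = 0.0015 and an adjusted p of 0.0015. Older eggs also resembled each other less. The Spearman correlation of a sample with the mean of the other members of its age had a median of 0.873 at 5-12h and 0.788 at 20-24h (permutation p = 4e-05, adjusted p = 6.7e-05). In library E3 alone these differences had the same direction with permutation p-values between 0.193 and 0.45.

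With edgeR's quasi-likelihood test and library as a covariate, 1953 of 7592 genes tested (25.7%) differed between 20-24h and 5-12h members at a Benjamini-Hochberg adjusted p under 0.05. Of these, 1032 (13.6%) were lower and 921 (12.1%) were higher in the older members. Changes of at least 2-fold were seen for 811 lower genes (10.7%) and 559 higher genes (7.36%), and the median log2 fold change of all genes tested was 0.09. The counts were 2017 (1110 lower and 907 higher) without the 5 members with roX RNA above 50 cpm. The count was 1333 with total count as a covariate and 1627 within library E2 alone. It was 0 within library E3 alone, where 621 of 6481 genes had an unadjusted p under 0.05 in the same test. Only 5 members of 5-12h come from that library, and the test of the difference between libraries E2 and E3 called 23 of 7592 genes by edgeR, of which 3 were among the 1953.

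The clearest decrease in relative level was that of the nuclear-encoded subunits of oxidative phosphorylation (OXPHOS). These belong to the respiratory chain and ATP synthase of the mitochondrial inner membrane. Their summed level, in cpm scaled by the trimmed mean of M values (TMM), ran from 5403 to 61472 with a median of 27378 in 5-12h members. In 20-24h members it ran from 5567 to 16012 with a median of 9693, so that 29 of the 31 younger eggs lay above every older egg. The remaining 2 were the 11-12h members of library E3, at 5403 and 8519. Medians over all libraries were 39038 cpm at 2-3h, where 11 of 25 members carried early zygotic transcripts. They were 35634, 30334, 22944 and 21210 cpm at 5-6h, 8-9h, 11-12h and 14-15h. At 17-18h, 20-21h and 23-24h they stood at 9027, 8713 and 9827 cpm. The mix of libraries differed between these ages. Within library E2 the medians were 33708, 35990 and 23299 cpm at 5-6h, 8-9h and 11-12h. In the same library they were 8059 and 10894 cpm at 20-21h and 23-24h. Samples outside the cluster had a median of 58588 cpm at 20-24h without scaling, against 10610 cpm in the members.

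**Figure D1:**
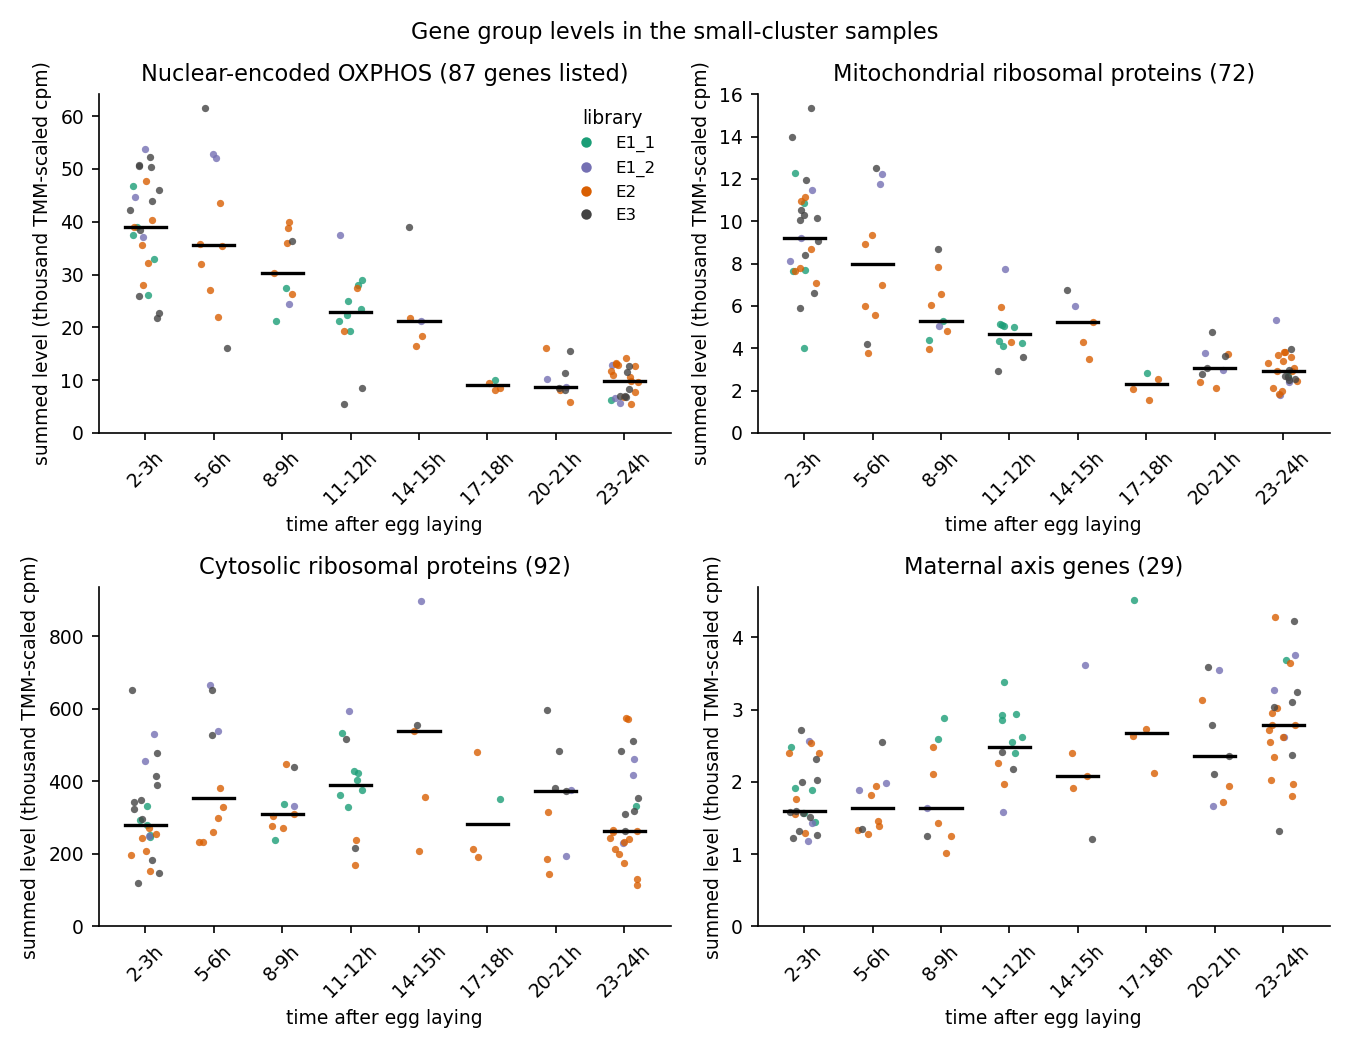
Summed TMM-scaled level of 4 gene groups in cpm (axis in units of 1000), in each of the 97 small-cluster samples by time after egg laying. Points are samples coloured by library and black bars are medians. Over all libraries, nuclear OXPHOS has a median of 39038 cpm at 2-3h and 9827 cpm at 23-24h. At 2-3h, 11 of the 25 samples carried early zygotic transcripts. Cytosolic ribosomal proteins overlap at all ages, and maternal axis genes have their highest median, 2790 cpm, at 23-24h.

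Of the 63 nuclear OXPHOS genes tested, 45 were lower, 0 were higher and 18 did not pass the test, with a median log2 fold change of -1.49. The share of all genes called lower was 13.6%. By complex, 23 of 32 subunits of complex I (NADH dehydrogenase) were lower, 2 of 4 of complex II (succinate dehydrogenase), 3 of 7 of complex III, 7 of 8 of complex IV (cytochrome c oxidase) and 9 of 11 of ATP synthase. ATPsynCF6, coupling factor 6 of ATP synthase (chromosome arm 3R, 23355220 to 23356064, BDGP6), had 178 to 3466 cpm with a median of 1552 cpm at 5-12h. At 20-24h it had 98.0 to 699 cpm with a median of 332.5 cpm, and all 32 older eggs lay below the median of the younger ones. Its log2 fold change was -2.30 ± 0.20 (SE), with an edgeR adjusted p of 8.4e-15. COX5B, a subunit of cytochrome c oxidase, had a median of 1815 cpm (127 to 4360) at 5-12h and 421 cpm (167 to 823) at 20-24h, and all 32 older eggs lay below the median of the younger. ND-B15, a subunit of complex I, had the largest change of the group, -2.76 ± 0.28.

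The median of the group was negative in every alternative fit, from -1.08 to -1.85, and was -1.32 in library E3 alone. The 5 E3 members of 5-12h spread from 5403 to 61472 cpm in summed OXPHOS level, more widely than the 13 of library E2, which lay between 19233 and 43629 cpm. The edgeR test of the difference between these libraries called 0 of the 63 genes, and 4 had an unadjusted p under 0.05. With 5 widely spread E3 members of 5-12h such a test can miss a difference. It does not show that the libraries are alike.

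The 13 protein-coding genes of the mitochondrial genome, which encode the catalytic core of the same complexes, were counted apart. None of 13 was lower and 4 were higher (mt:ATPase6, mt:ATPase8, mt:ND5 and mt:ND4L), beside 13.6% and 12.1% of all genes. The median log2 fold change was 0.16. The positions of mt:ATPase8 (3907 to 4068) and mt:ATPase6 overlap, so their calls may not be independent. mt:ATPase6, the a subunit of ATP synthase (mitochondrial genome, 4062 to 4736), had 3936 to 35634 cpm with a median of 10969 cpm at 5-12h. At 20-24h it had 9297 to 70678 cpm with a median of 27013 cpm, a log2 fold change of 1.38 ± 0.17 with an edgeR adjusted p of 2e-09. mt:CoI and mt:Cyt-b, for a subunit of complex IV and of complex III, had log2 fold changes of 0.16 ± 0.14 and 0.06 ± 0.17 and did not pass the test. The share of counts from all mitochondrial genes, rRNAs included, had a median of 5.15% (2.55% to 8.53%) at 5-12h and 7.95% (3.67% to 28.9%) at 20-24h, with a permutation p = 0.00017 and an adjusted p of 0.00021. mt:ND4L was low, with medians of 1.63 and 5.54 cpm. The number of higher mitochondrial genes was 2 without library E1_1, after thinning or with total count as a covariate, and 1 in library E2 alone, in libraries E1_1 and E1_2 alone, without 23-24h or without 8-9h.

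**Figure D2:**
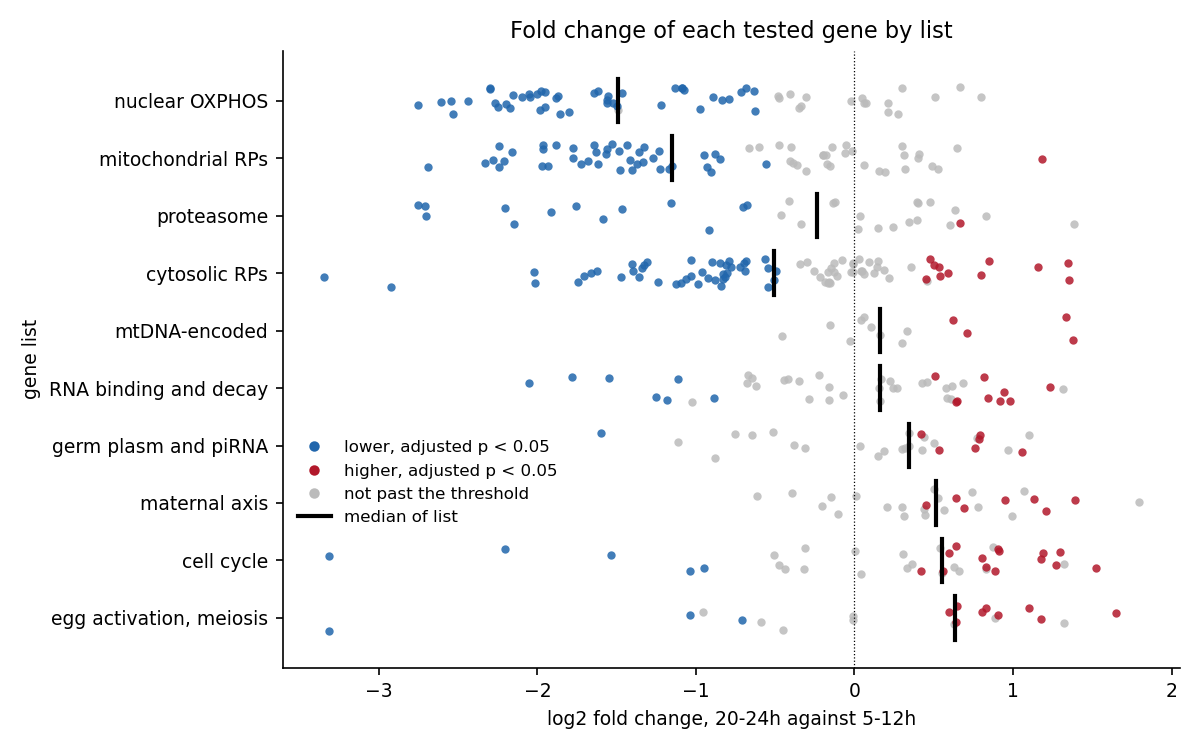
Log2 fold change of 20-24h against 5-12h members for each tested gene of 10 lists. Blue and red points passed an adjusted p of 0.05 as lower and higher, grey points did not, and black bars are list medians. Nuclear OXPHOS and mitochondrial ribosomal proteins lie mostly below 0, with medians of -1.49 and -1.15, and the mtDNA-encoded genes do not, with a median of 0.16.

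Mitochondrial ribosomal proteins, also imported from the cytosol and needed to translate the mitochondrial mRNAs, were also mostly lower. Of 71 tested, 42 were lower and 1, mRpS9, was higher, beside 13.6% and 12.1% of all genes. The median log2 fold change was -1.15. The large subunit accounted for 31 of the lower genes out of 46 tested, and the small subunit for 11 of 25. Summed levels overlapped more than those of OXPHOS: 14 of 31 younger eggs lay above every older egg, and medians were 5169 cpm (2938 to 12528) and 2956 cpm (1781 to 5326). mRpL27 had a median of 409 cpm at 5-12h and 111 cpm at 20-24h, a log2 fold change of -1.96 ± 0.26. mRpS17 did not pass the test, at 0.41 ± 0.18. The number of lower genes dropped to 25 without the 5-6h members and to 23 in libraries E1_1 and E1_2 alone.

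Proteasome transcripts were counted by subcomplex, and the difference between subcomplexes was not tested. Of 13 tested genes of the 20S core particle, which cuts proteins, 9 were lower and 1 was higher, with a median log2 fold change of -1.47. Of 19 tested genes of the regulatory particle, which binds and unfolds ubiquitinated substrates, 4 were lower and 0 were higher, with a median of 0.15. These counts stand beside 13.6% lower and 12.1% higher among all genes. In the separate comparison described below, 12 of 19 regulatory and 6 of 13 core particle genes were lower. Prosalpha7 (chromosome arm 2R, 9846636 to 9847836) had 35.4 to 1548 cpm with a median of 813 cpm at 5-12h, and 4.46 to 332.5 cpm with a median of 111 cpm at 20-24h. Its log2 fold change was -2.75 ± 0.31 with an edgeR adjusted p of 6.5e-11, and all 32 older eggs lay below the median of the younger. Prosbeta1, a catalytic subunit, fell by 2.70 ± 0.22 on the log2 scale. Prosbeta2, another catalytic subunit, was higher, with medians of 347 and 547 cpm and a log2 fold change of 0.66 ± 0.23. In library E2 alone 8 of the proteasome genes were lower instead of 13.

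Cytosolic ribosomal protein genes were called in both directions. Of 85 tested, 44 were lower and 11 were higher, beside 13.6% and 12.1% of all genes, so the higher count is near the share of all genes. The median log2 fold change was -0.51. Their summed level overlapped almost fully, with 29 of 31 younger eggs inside the range of the older ones, and medians were 337429 and 288465 cpm. RpS20, a protein of the small subunit (chromosome arm 3R, 20822181 to 20823356), had a median of 4462 cpm at 5-12h (139 to 18259) and 419 cpm at 20-24h (109 to 5782). Its log2 fold change was -3.35 ± 0.31 with an edgeR adjusted p of 1.7e-13, although in library E3 the medians were 668 and 588 cpm. RpS2 fell by 2.92 ± 0.38 on the log2 scale, from a median of 1561 to 155 cpm. RpL5, which binds 5S rRNA in the large subunit (chromosome arm 2L, 22532279 to 22536884), had 2711 to 28318 cpm with a median of 6683 cpm at 5-12h. At 20-24h it had 7324 to 40079 cpm with a median of 15458 cpm, and every older egg lay above the median of the younger. Its log2 fold change was 1.35 ± 0.19 with an edgeR adjusted p of 7.5e-08. RpL15 changed by 1.35 ± 0.17 and RpS6, the target of S6 kinase, by 1.16 ± 0.19. RpS25 and RpS3A, among the most abundant of the group, had log2 fold changes of -0.13 ± 0.17 and 0.12 ± 0.19 and did not pass the test.

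**Figure D3:**
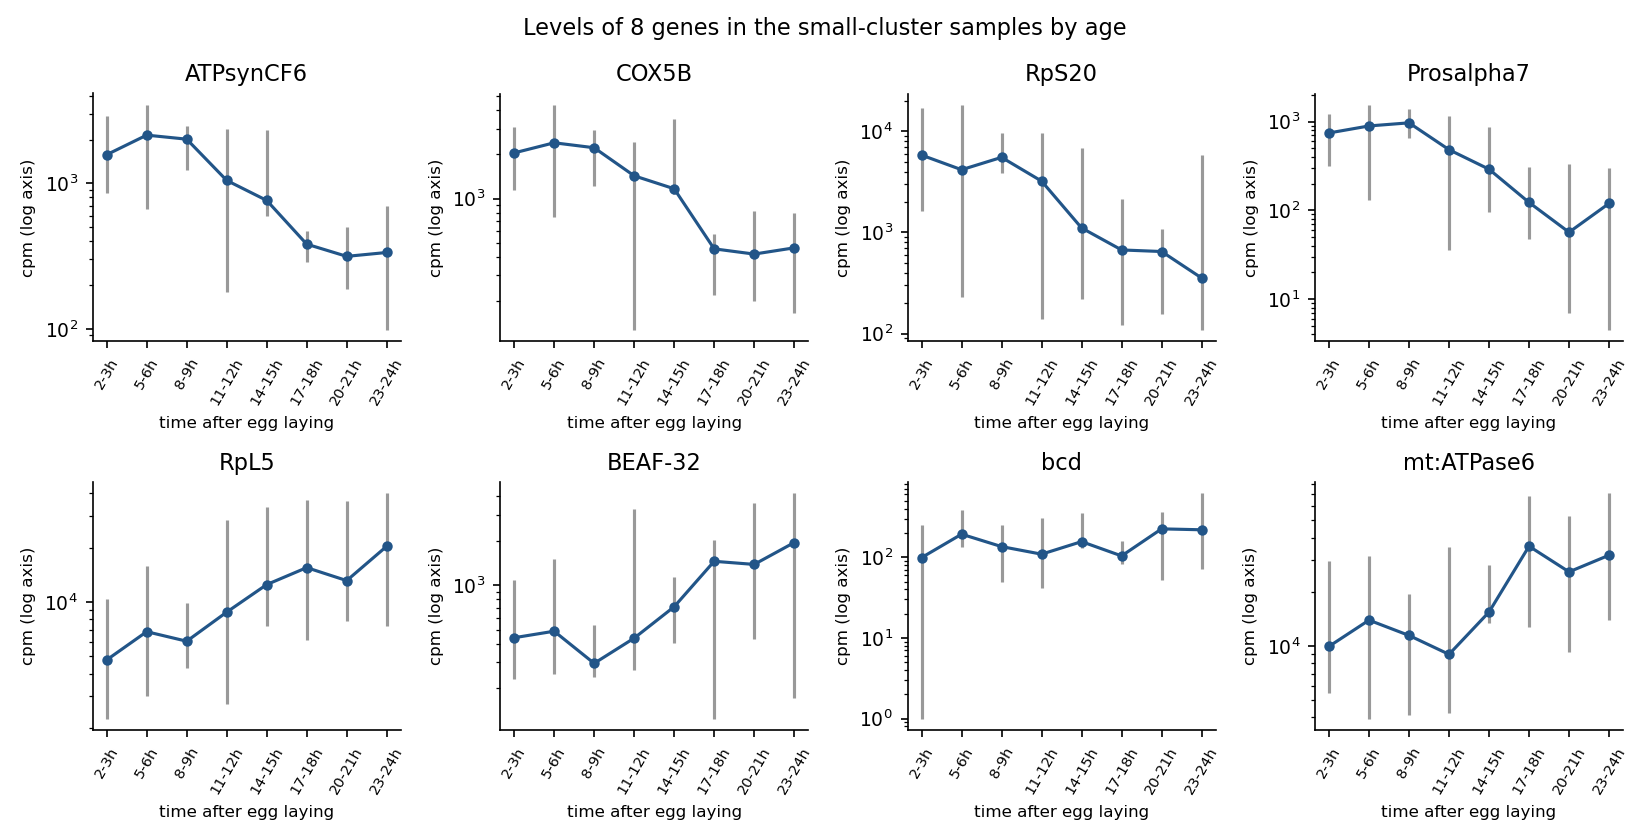
TMM-scaled cpm (log axis) of 8 genes in small-cluster samples by time after egg laying. Points joined by a line are medians, grey bars run from the lowest to the highest sample, and values under 1 cpm are drawn at 1. ATPsynCF6, COX5B, RpS20 and Prosalpha7 are lower at 20-24h than at 5-12h (medians 332.5, 421, 419 and 111 against 1552, 1815, 4462 and 813 cpm), and RpL5, BEAF-32 and mt:ATPase6 are higher.

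Beyond these groups, the genes that fell most were of mixed function. Among the genes with a median of at least 10 cpm at 5-12h and a lower median at 20-24h in each of 3 libraries, CG11674 fell most, from a median of 140 cpm to 6.52 cpm (log2 fold change -3.82 ± 0.48), and in library E3 the medians were 8.75 and 6.89 cpm. EMC4, a subunit of the complex that inserts membrane proteins into the endoplasmic reticulum, fell by 3.07 ± 0.29 on the log2 scale. MED22, a subunit of the Mediator complex of transcription, fell by 3.06 ± 0.33. Sod1, the cytosolic superoxide dismutase, had medians of 1949 and 343 cpm and fell by 2.28 ± 0.22, with all 32 older eggs below the median of the younger.

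Under the same filter in the other direction, the 12 genes with the largest increases had log2 fold changes between 1.76 and 2.47. CG31517 led them at 2.47 ± 0.50, with medians of 10.02 and 25.4 cpm. It was followed by chm, a histone acetyltransferase, at 2.05 ± 0.47, with medians of 9.73 and 57.6 cpm. CG5787 (1.89), Hip1 (1.85) and CG8461 (1.85) came next. BEAF-32, an insulator protein (chromosome arm 2R, 14770469 to 14772630), had 238 to 3256 cpm with a median of 416 cpm at 5-12h. At 20-24h it had 172 to 4190 cpm with a median of 1673 cpm, a log2 fold change of 1.81 ± 0.23 with an edgeR adjusted p of 2.65e-09. Surf6, a nucleolar protein, had medians of 379 and 1640 cpm and a log2 fold change of 1.79 ± 0.22. Eaf6, of histone acetyltransferase complexes, had medians of 78.6 and 354 cpm and changed by 1.85 ± 0.27. hpo, the kinase of the Hippo pathway, had medians of 36.5 and 83.1 cpm and changed by 1.76 ± 0.29.

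No tested maternal gene of the embryonic axes was called lower, although some had lower medians at 20-24h. Among 26 tested, 0 were lower and 7 were higher, beside 13.6% and 12.1% of all genes. In so small a list the absence of lower calls does not show that these RNAs were kept. The median log2 fold change was 0.51 beside 0.09 for all genes. bcd, the anterior determinant, had 42 to 382 cpm with a median of 154 cpm at 5-12h and 52.9 to 621 cpm with a median of 222 cpm at 20-24h. Its log2 fold change was 0.69 ± 0.21 with an edgeR adjusted p of 0.0095, and the groups overlapped broadly. The medians of bcd were 154 and 151 cpm in library E2, 231 and 426 cpm in E1_2, and 243 and 330 cpm in E3. Its call was kept in 18 of 24 alternative fits. Tl, the receptor of the dorsal-ventral pathway, changed by 1.21 ± 0.24, swa by 1.13 ± 0.21, and stau, which binds bcd and osk mRNA, by 1.39 ± 0.32. tor, the terminal receptor, did not pass the test at 0.31 ± 0.27. Of the 26 genes, 5 had a log2 fold change below 0. ea and pll did not pass, at -0.15 ± 0.42 and -0.10 ± 0.44. Their medians went from 46.4 to 23.1 cpm and from 37.4 to 20.0 cpm. Of 29 listed axis genes, 1 had a median of 0 counts at 5-12h and 6 at 20-24h, where libraries were shallower. The mean log2 level of the tested genes per sample had a median of 4.07 at 5-12h and 3.84 at 20-24h. The number of higher axis genes fell from 7 to 4 with total count as a covariate or without 5-6h, and to 2 without 23-24h.

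Among 27 tested genes of the germ plasm and the piRNA pathway, 6 were higher and 1 was lower, beside 12.1% and 13.6% of all genes. The higher genes included Panx (1.06 ± 0.22) and mael (0.76 ± 0.17). The lower gene was armi, an RNA helicase with medians of 1.85 and 0.22 cpm. The number of lower genes was 0 after thinning, with DESeq2 size factors and in library E2 alone, among other fits. aub, a PIWI protein of the germ plasm, had 35.4 and 41.6 cpm as medians and did not pass the test at 0.34 ± 0.39. Among 20 tested genes of egg activation and meiosis, 9 were higher and 3 were lower, beside the same shares of all genes. mei-S332, the Shugoshin that protects centromeric cohesion, had medians of 99.0 and 304 cpm and changed by 1.65 ± 0.20. twe, the meiotic Cdc25 phosphatase, had medians of 197 and 508 cpm and changed by 1.18 ± 0.19, and wisp, a cytoplasmic poly(A) polymerase, by 1.10 ± 0.24. Cdk1, the mitotic kinase, fell by 1.04 ± 0.20, from a median of 853 to 405 cpm, while its cyclins CycA and CycB3 rose in share by 0.64 ± 0.17 and 0.91 ± 0.17. cort, a meiotic activator of the anaphase-promoting complex, fell by 3.31 ± 0.56 with a median of 1.62 cpm at 5-12h and 0 at 20-24h.

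Of 43 tested RNA-binding and decay factors, 7 were lower and 9 were higher, beside 13.6% and 12.1% of all genes. With total count as a covariate 4 were lower and 5 higher, and without 23-24h 2 and 2. smg, which recruits the CCR4-NOT deadenylase to maternal mRNAs, had medians of 295 and 355 cpm and changed by 0.65 ± 0.15. pum and brat, which repress mRNAs through their 3′ UTRs, changed by 0.64 ± 0.22 and 0.94 ± 0.22. The decapping activator DCP1 fell by 2.06 ± 0.49, and Csl4 and Ski6, subunits of the RNA exosome, fell by 1.18 ± 0.26 and 1.11 ± 0.43. The call of Ski6 (adjusted p of 0.045 by edgeR) was kept in only 8 of 24 alternative fits. me31B, a helicase of repressed maternal mRNPs, did not pass the test at -0.29 ± 0.19.

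Genes that fell were short. The median coding length was 728 bases for the lower genes, 1470 bases for the higher genes and 1260 bases for all genes tested with a coding sequence, and the median 3′ UTR lengths were 152, 346 and 247 bases. Across genes, which are not independent replicates, Spearman's rho of log2 fold change was 0.26 with coding length, 0.20 with 3′ UTR length and 0.28 with transcript length. The share of genes called lower was 34.2% among 260 genes of up to 300 coding bases and 2.07% among 965 genes above 3000 bases. The share called higher went from 6.15% to 14.8% between the same bins.

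The gene groups were also compared among short genes. Among genes with up to 600 coding bases, 37 of 44 nuclear OXPHOS genes (84.1%) and 30 of 41 mitochondrial ribosomal protein genes (73.2%) were lower. The same held for 30 of 61 cytosolic ribosomal protein genes (49.2%), and for 293 of 1155 genes (25.4%) in none of these lists nor in the proteasome. The median log2 fold changes of these 4 sets of short genes were -1.72, -1.37, -0.30 and -0.16. Whether length or group goes with the change was not tested.

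**Figure D4:**
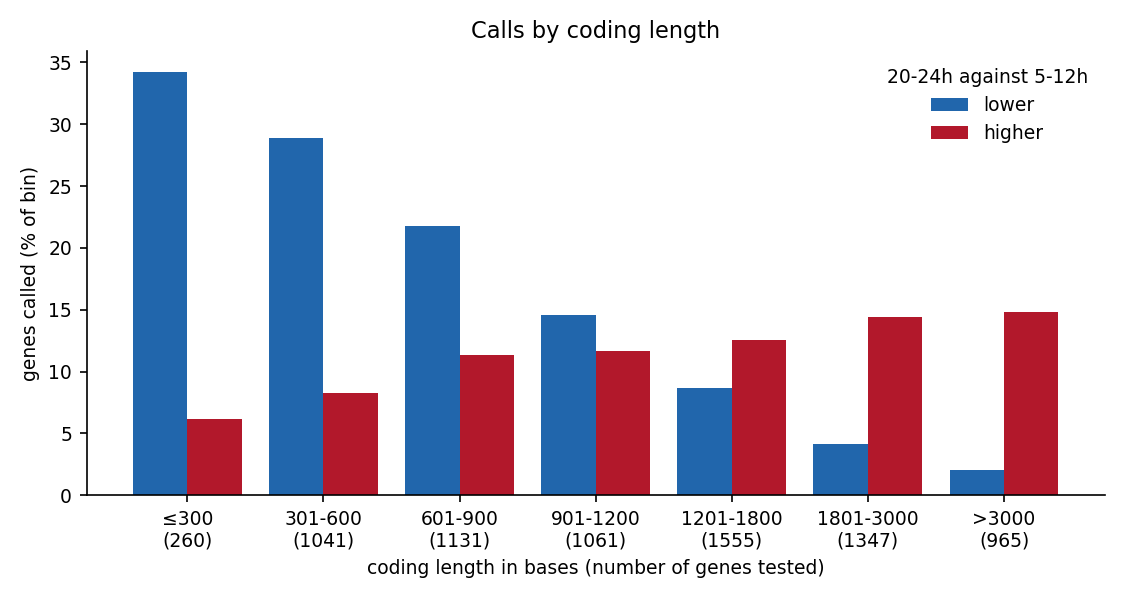
Percentage of tested genes called lower (blue) or higher (red) at 20-24h against 5-12h, by coding length in bases; the number of genes tested is given under each bin. The lower share goes from 34.2% in the shortest bin to 2.07% in the longest, and the higher share from 6.15% to 14.8%.

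The members aged 14-15h and 17-18h (9 samples, called 14-18h) against those aged 2-3h (25 samples) share no sample with the main comparison. Libraries E1_1, E1_2, E2 and E3 held 1, 1, 6 and 1 samples of 14-18h and 5, 3, 6 and 11 of 2-3h. Median total counts were 2768674 at 14-18h and 7724679 at 2-3h, and 733880 in the 4 members of 17-18h. Age, depth and library are thus partly linked here too. There edgeR called 2277 of 7768 genes (29.3%), 1209 lower (15.6%) and 1068 higher (13.7%), of which 1176 (15.1%) and 929 (12%) changed at least 2-fold. Without the 11 members of 2-3h that carried early zygotic transcripts it called 1594 of 7601 genes (21%), 1139 lower (15%) and 455 higher (5.99%), of which 1136 (14.9%) and 430 (5.66%) changed at least 2-fold. Nuclear OXPHOS genes were mostly lower in both fits: 40 of 62 genes were lower in the first and 33 of 62 in the second, with medians of -1.14 and -1.17. Mitochondrial ribosomal proteins were lower for 41 and 36 of 71 genes, and proteasome genes for 18 of 32 in both fits. By subcomplex with all members, 12 of 19 regulatory particle genes were lower and 0 higher (median -2.10), and 6 of 13 core particle genes were lower and 2 higher (median -0.64). In the main comparison more of the core than of the regulatory particle genes had been lower.

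Cytosolic ribosomal protein genes were mostly higher in this comparison, and its difference from the main one was not tested. In the 14-18h members 49 of 85 were higher and 8 were lower than at 2-3h, with a median log2 fold change of 0.86, and without the 11 samples 42 of 86 were higher and 6 lower. RpL5 was higher in this comparison too, at 2.18 with all members and 1.96 without the 11, and RpS20 was lower, at -1.27 and -1.25. Of 28 maternal axis genes tested, 3 were lower and 4 higher with all members, and 6 lower and 1 higher without the 11, with medians of 0.55 and -0.10.

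Gene by gene, 7209 genes were tested in both comparisons, of which 1067 were lower and 1032 were higher at 14-18h. Of the 1025 lower at 20-24h, 382 (37.3%) were also lower at 14-18h, which is 35.8% of the 1067 lower there. Of the 873 higher at 20-24h, 56.5% were also higher at 14-18h, which is 47.8% of the 1032 higher there, and 30 genes were called in opposite directions. Without the 11 samples of 2-3h, 344 genes (33.6% of 1024) were lower in both and 258 (29.7% of 868) were higher in both. In that fit, 1039 of the 7136 genes tested in both were lower and 432 were higher at 14-18h. There 11 genes were lower at 20-24h and higher at 14-18h, and 13 went the other way.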

How the data were processed

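The authors demultiplexed the reads and trimmed poly(A), aligned them with STAR to BDGP6 with the Ensembl annotation of that time and deposited HTSeq read counts per gene; reads were counted, not molecular identifiers, versions of STAR and HTSeq are not given in the sources used here, and the table covers all 288 samples. Symbols, positions and lengths came from a later Ensembl annotation of BDGP6, in which 17560 of 17698 gene IDs matched.

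For membership, log2 cpm of genes with a mean above 1 cpm were quantile-normalised and adjusted for library with ComBat (sva 3.50.0), and classical scaling was run on 1 minus Spearman's correlation. No pair of members of 1 age had identical counts, and their lowest chi-square per degree of freedom was 21.7. Counts were tested with edgeR 4.0.16 (R 4.3.3) by quasi-likelihood, TMM scaling and library as a covariate, on genes with a mean above 1 cpm, with Benjamini-Hochberg adjustment over all genes. Summed levels of marker lists are plain cpm; other levels are TMM-scaled over the 97 members. Single values per sample were compared by two-sided permutation within libraries (100000 draws) with adjustment over 5 values. Alternatives used DESeq2 1.42.0 and limma 3.58.1, other scalings, filters, covariates, libraries and ages. The fit was tested on simulated data.

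Genes named are, in each direction, the 12 largest changes among called genes with a median of at least 10 cpm and the same direction in 3 libraries; list genes with a mean of at least 20 cpm; up to 4 most abundant genes of other lists; and others chosen after their values were seen (ND-B15, mt:ND4L, mRpS9, Prosbeta1, Prosbeta2, RpL15, RpS6, cort, armi, HP1c, Nlp, Sod2 and Cat). Members and lists were chosen with earlier results of these data known. Intervals and tests cover the spread between samples only. Where ribosomal protein genes have close copies, reads may be split between them.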

Additional observations from a re-analysis of the deposited data

Results flagged for a closer look

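At 8-9h, 1 of the 9 members had 4651 genes detected at 300000 counts, where the next lowest had 6030 and the highest 6870. At 14-15h, 1 of the 5 members had 19.3% of its counts from mitochondrial genes, where the next highest had 5.51% and the lowest 3.81%. Each stood further from the rest of its age than Dixon's 95% criterion allows. Of 60 groups of 4 to 10 members examined in this way 2 were picked out, and chance alone picks out about 1 in 20.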

How the results depend on the processing

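The direction of the nuclear OXPHOS, mitochondrial and cytosolic ribosomal protein medians was negative in all 24 alternative fits. In library E3 alone, edgeR called 0 genes lower and 0 higher, and the within-library differences of single values were -815591 counts (permutation p = 0.193), -197.3 genes (p = 0.41), 3.49 percentage points for the top 100 genes (p = 0.199), 3.18 points for mitochondrial genes (p = 0.45) and -0.025 for the correlation (p = 0.353). Counts of called genes moved to 1236 (663 lower, 573 higher) in libraries E1_1 and E1_2, to 1240 (608 lower) without 23-24h, to 1126 (602 lower, 524 higher) without 5-6h, to 486 higher without 8-9h, and to 680 lower with total count as a covariate. Leaving out library E1_1 and leaving out roX-positive or early zygotic members were chosen after the data were seen. For 14-18h against 2-3h, higher genes numbered 440 with no filter, 516 after thinning and 455 without the early zygotic members, and the median log2 fold change of all genes was 0.05, against -0.07 with DESeq2 size factors, -0.06 with DESeq2's test and 0.21 with limma on quantile-normalised values. The direction reversed for RpS3A, which was not called (-0.54, limma), and for pAbp (-0.076, no library covariate), CycB (-0.024), vret (-0.033), brat (-0.11) and Ald1 (-0.31) in library E3, and bel (-0.24) and halo (-0.11) in libraries E1_1 and E1_2; the cause was not tested. The planned use of the other age label of 1 sample gave no value, since that sample is not a member. Shallow older samples limit what can be said of genes near 1 cpm. No paired analysis was possible because the labels give libraries and wells but no replicate numbers shared between ages.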

Other observations

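Of all genes tested, 13.6% were lower and 12.1% were higher. The lists below are small, and their counts are a description beside these shares. Of 13 histone variant and chromatin genes tested, 3 were lower and 2 were higher. His2Av, the histone H2A variant, had medians of 2929 cpm (2012 to 11873) at 5-12h and 8770 cpm (1565 to 18238) at 20-24h, a log2 fold change of 1.24 ± 0.16, and Df31, a decondensation factor, changed by 1.07 ± 0.17. HP1c fell by 1.61 ± 0.30 and Nlp, a nucleoplasmin, by 0.55 ± 0.17. Of 11 tubulin and actin genes tested, 2 were lower and 1 was higher. betaTub56D had medians of 2436 and 823 cpm and fell by 1.20 ± 0.24, while Act42A changed by 0.88 ± 0.18 and Act5C did not pass the test at -0.02 ± 0.18. For 14-18h against 2-3h betaTub56D went the other way, at 1.28 ± 0.33 with an edgeR adjusted p of 0.0036. It was 1.35 ± 0.39 without the early zygotic members. Of 13 tubulin and actin genes tested with all members of those ages, 2 were lower and 6 were higher. The difference between the comparisons was not tested. Of 15 glycolytic genes tested, 0 were lower and 1, Ald1, was higher, at 0.91 ± 0.18. Among 17 genes of redox defence 4 were lower, including Sod1 and the mitochondrial Sod2 (-1.08 ± 0.26), and 2 were higher, including Cat, the catalase, at 1.01 ± 0.29. Of 17 heat shock genes tested, 0 were lower and 1, Hsp23, was higher, at 1.13 ± 0.30, and 0 of 7 immune and apoptosis genes tested passed in edgeR's test.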
